A study of Mus musculus with 6 samples.

Results

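The 35 genes described here carry fatty acids into cardiac cells and burn them in the mitochondria. They were chosen by known role, from the uptake of fatty acids at the cell surface to the regulators of the oxidation programme, and were found by symbol in the gene table. All 35 were among the 17556 genes of that table, and all 35 passed the filter on low counts that left 13817 genes for testing. Bulk RNAseq had been carried out on 6 left ventricles of mice aged 6 to 10 weeks, collected 4 days after permanent ligation of the left anterior descending coronary artery, which causes a myocardial infarction. The comparison asks what the loss of Yap and Wwtr1 (the gene for TAZ) in myofibroblasts does to the RNA of the injured ventricle.

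Both genotypes carried floxed alleles of Yap and Wwtr1, with both alleles of Yap and 1 allele of Wwtr1 open to deletion, and both were given a diet with tamoxifen citrate after surgery. The mice of the 3 Cre-positive libraries also carried a copy of MerCreMer, a tamoxifen-dependent Cre recombinase, under the endogenous periostin (Postn) promoter. The Cre-negative siblings, also with 3 libraries, had wild type Postn. No group carried Cre without the floxed alleles. Loss of Yap and Wwtr1, Cre itself and the altered Postn allele therefore cannot be told apart. The Cre driver acts in periostin-expressing myofibroblasts, whereas the RNA came from the whole left ventricle, in which cardiomyocytes supply most of the fatty acid oxidation transcripts. In such bulk RNA, fewer cells of a type and less RNA per cell cannot be told apart. The labels do not say whether each library holds RNA of a single mouse, and p-values measure the spread between these ventricles.

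The adult heart obtains most of its energy from fatty acids. These are released from lipoproteins by lipoprotein lipase, enter through CD36 and fatty acid transport proteins, are bound by FABP3 and are activated to acyl-CoA. The carnitine shuttle, whose first enzyme is CPT1, takes acyl-CoA into the mitochondrion, where the spiral of beta-oxidation shortens the chain and passes electrons to the respiratory chain through the electron transfer flavoprotein. PPARα, the ERR receptors and the PGC-1 coactivators switch these genes on together, and after infarction the programme is known to be turned down in the injured heart.

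The receptors that act on these genes bind DNA motifs built on the hexamer AGGTCA, so the hexamer was sought in the promoters of the members, from 250 bases before to 50 bases after the start site, in RefSeq sequences of GRCm38.p6. Of the 35 members, 30 matched a promoter there. AGGTCA was present on either strand in 7 of these 30 genes (23.3%), against 15% of the 10945 tested genes with a promoter. A gene with several promoters was counted once if any of them held a match. The longer ERR element TCAAGGTCA, which contains the hexamer, was found in 0 of 30 members and in 0.311% of all these genes. The direct repeat AGGTCANAGGTCA, with any base between its copies, was found in 0 of 30 and in 0.0457%. A match describes the letters only, and the absence of one says nothing about binding of a factor. The windows below are shown because they belong to genes that ranged from the largest genotype differences to the smallest. Each is written 5′ to 3′ on the strand of its gene, with capitals marking the hexamer or its reverse complement TGACCT.
Plin5, chr17:56117683-56117748, minus strand: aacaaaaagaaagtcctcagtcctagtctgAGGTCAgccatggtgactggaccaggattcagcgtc
Acadvl, chr11:70015480-70015545, minus strand: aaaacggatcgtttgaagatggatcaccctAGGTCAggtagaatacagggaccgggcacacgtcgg
Acadm, chr3:153944857-153944893, minus strand: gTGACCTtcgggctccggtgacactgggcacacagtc
Cpt1a, chr19:3323177-3323242, plus strand: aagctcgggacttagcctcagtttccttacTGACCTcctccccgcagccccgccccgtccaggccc
Ucp3, chr7:100472812-100472877, plus strand: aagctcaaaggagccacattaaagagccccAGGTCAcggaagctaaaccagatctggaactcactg
Ucp3, chr7:100472917-100472982, plus strand: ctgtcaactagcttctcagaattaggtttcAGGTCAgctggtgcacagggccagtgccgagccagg

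The libraries held between 13177888 and 14827579 estimated counts each, and no library was a copy of another, with chi-square values of 8.64 to 49.6 per gene between libraries of the same genotype. Cre-negative replicate 1 stood apart from the other ventricles. It had the highest summed TPM of 12 cardiomyocyte markers (71238, against 53931 to 60279 in the other ventricles), the lowest of 7 fibroblast markers (4501, against 6459 to 8323) and of 7 macrophage markers (2404, against 3231 to 3902), and the highest of 6 neutrophil markers (423, against 53.2 to 162). TPM is scaled to transcript length and to the same total in every library. For Yap1 and Wwtr1 whole-ventricle RNA gave log2 fold changes of 0.03 and 0.05 (adjusted p = 0.935 and 0.876, edgeR's quasi-likelihood test). Normalized counts of Yap1 were 1550, 1476 and 1422 in Cre-negative ventricles and 1619, 1439 and 1477 in Cre-positive ventricles, and those of Wwtr1 were 1620, 1466 and 1608 against 1618, 1562 and 1664. The driver gene Postn had 12182, 24690 and 26918 normalized counts in Cre-negative ventricles and 12708, 14270 and 13514 in Cre-positive ventricles (log2 fold change −0.66, adjusted p = 0.714, same test), and the Cre-positive mice carry 1 modified Postn allele. Cre-positive replicate 1 alone had the adult fast skeletal muscle myosin Myh1 above trace level, at 16.1 TPM against 0 to 0.11 elsewhere, and the summed TPM of the 6 skeletal muscle markers was 142 there against 14.6 to 21.2 in the other ventricles.

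All 35 fatty acid genes had a negative log2 fold change of Cre-positive over Cre-negative ventricles, with a median of −0.43 and a range from −1.25 (Ucp3) to −0.04 (Cpt1a). Over all 13817 genes tested the median was 0.01, and 48.8% had a negative value. None of the 35 passed the threshold of an adjusted p under 0.05 in edgeR's quasi-likelihood test with Benjamini-Hochberg adjustment over all genes tested, which 1 gene of the whole table passed (0.00724%). The adjusted p of the members ran from 0.714 to 0.919 in that test. An unadjusted p under 0.05 was reached by 15 of the 35, all lower in Cre-positive ventricles, against 5.83% of all genes in either direction and 2.98% in the lower direction. DESeq2's Wald test also left 0 members past its adjusted threshold, with 25 of them at an unadjusted p under 0.05 (all genes, 4.80%). For 17 members every Cre-positive ventricle lay below every Cre-negative ventricle, and for none did every one lie above, whereas 6.85% of all genes had no overlap in the lower direction and 7.55% in the higher direction.

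The size of this difference turned on Cre-negative replicate 1. That ventricle had the highest normalized count of the 6 for 31 of the 35 members, and Cre-negative replicate 2 for the other 4 (Lipe, Cpt1a, Pdk4 and Ucp3). Over all genes tested, Cre-negative replicate 1 was the highest library for 30.8% and the lowest for 32.1%. Its count of a member was a median of 1.56 times that of Cre-negative replicate 3, and above it for 35 of 35, whereas the count in replicate 2 was a median of 1.08 times that in replicate 3. Without Cre-negative replicate 1, the members' median log2 fold change was −0.18, 34 of 35 remained negative, 14 had an unadjusted p under 0.05 (all genes, 6.59%) and 19 did not overlap (all genes in the lower direction, 12.2%). The lowest ventricle was Cre-positive for 33 members (replicate 2 for 17, replicate 3 for 9 and replicate 1 for 7) and Cre-negative replicate 3 for the other 2. Leaving out other ventricles moved the count at an unadjusted p under 0.05 to 32 without Cre-negative replicate 3 (all genes, 9.61%) and to 5 without Cre-positive replicate 3 (all genes, 3.68%). It was 2 without Cre-positive replicate 1 (all genes, 3.98%) and 2 without Cre-positive replicate 2 (all genes, 2.68%), and 2 of 35 is near these shares.

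**Figure D1:**
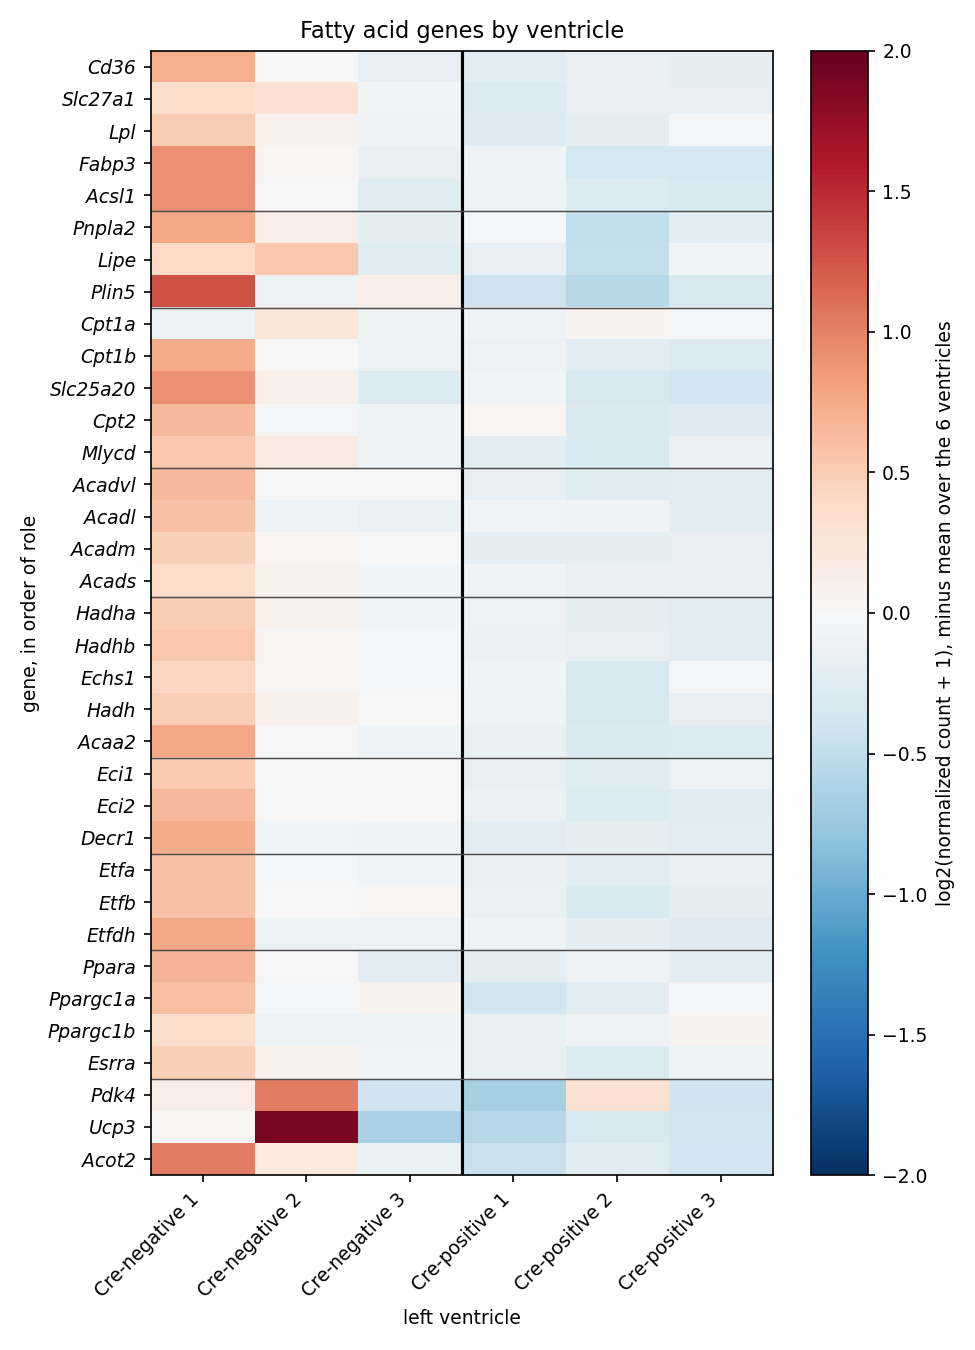
Each row is 1 of the 35 fatty acid genes, in order of role, and each column 1 left ventricle. Colour gives the log2 of the normalized count plus 1, minus its mean over the 6 ventricles, and the column of Cre-negative replicate 1 holds the highest value for 31 of the 35 genes.

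The levels themselves, as deposited TPM, were dominated by the uptake genes. Fabp3 averaged 5052 TPM over the 6 ventricles, rank 18 of all genes, and Lpl averaged 1700 TPM, rank 76. Together these made up 44.4% to 49.3% of the summed TPM of the members in each ventricle. Next came Hadhb (774 TPM), Acadl (650 TPM), Etfb (537 TPM) and Cd36 (528 TPM), whose values in single ventricles overlapped with those of their neighbours in this order. The 4 lowest members were Ppargc1a (17.3 TPM), Ppara (10.0 TPM), Ucp3 (9.38 TPM) and Ppargc1b (6.58 TPM), whereas the receptor gene Esrra averaged 102 TPM. Of the CPT1 genes, the muscle form Cpt1b averaged 320 TPM and the liver form Cpt1a 36.3 TPM. Summed over the 35 members, TPM was 20906, 14528 and 13333 in Cre-negative replicates 1 to 3 and 13064, 12885 and 12811 in Cre-positive replicates 1 to 3. The lowest Cre-negative sum thus lay above the highest Cre-positive sum, by far less than the gap among the Cre-negative ventricles.

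Cardiomyocyte markers differed in the same direction as the members. All 12 of 12, which include Myh6, Tnnt2, Ryr2 and Atp2a2, had a negative log2 fold change, with a median of −0.29, 2 at an unadjusted p under 0.05 (all genes, 5.83%) and 6 with no overlap (all genes in the lower direction, 6.85%). Without Cre-negative replicate 1 this median was −0.10, and 10 of 12 were negative. Set against the summed TPM of these markers, the members amounted to 29.3%, 24.3% and 22.1% in Cre-negative ventricles and 23.8%, 23.9% and 22.0% in Cre-positive ventricles, so that the genotypes overlapped and Cre-negative replicate 1 alone was high. When libraries were instead scaled to the summed counts of the 12 markers, the median of all genes shifted from 0.01 to 0.27. The members' median was then −0.12. Such scaling moves every gene by about the same amount, so it could hardly change the order of the members and all genes. Under this scaling 31 members were negative and 4 were positive, namely Cpt1a (0.21), Ppargc1b (0.17), Acadl (0.043) and Acads (0.015). These 4 had the values nearest 0 before it (−0.04, −0.13, −0.27 and −0.27), so the upward shift of all genes could by itself turn their sign. Plin5 (−0.63) and Acot2 (−0.46) were the 2 members at an unadjusted p under 0.05, a count near the share of all genes in either direction (6.47%). For 6 members the genotypes had no overlap, all lower, namely Plin5, Acadvl, Hadh, Eci1, Eci2 and Etfb. In that direction it was 0.507% of all genes. Before the scaling it was 17 members and 6.85% of all genes, and the upward shift takes genes out of the lower direction. The part of cardiomyocyte content in the difference was not tested, and this scaling, which moves all genes nearly alike, cannot test it.

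**Figure D2:**
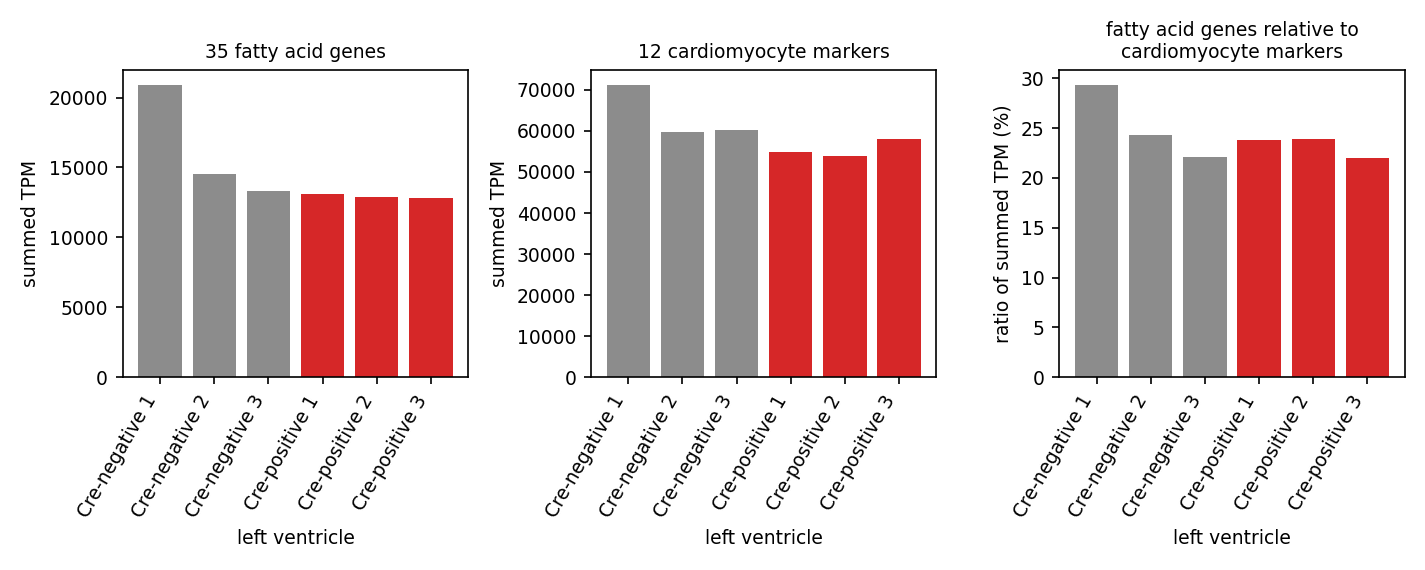
Bars give, for each of the 6 left ventricles, the summed TPM of the 35 fatty acid genes, the summed TPM of 12 cardiomyocyte markers, and the first as a percentage of the second. Cre-negative replicate 1 (grey, leftmost) is the highest in all 3 panels, and the other 5 ventricles lie between 22.0% and 24.3% in the third.

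In the following account, values are normalized counts in replicates 1, 2 and 3 of each genotype, and each log2 fold change is that of Cre-positive over Cre-negative ventricles with its 95% interval in brackets. Normalized counts are scaled to library size and not to gene length, so they are compared between ventricles and not between genes. No member passed the adjusted threshold, as given above, and for 3 against 3 ventricles an exact two-sided permutation test cannot give a p below 0.1.

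Of the 5 uptake and activation genes, Slc27a1 separated the genotypes and the other 4 overlapped. Slc27a1, which encodes the fatty acid transport protein FATP1, had 3270, 3134 and 2476 normalized counts in Cre-negative ventricles and 2132, 2322 and 2287 in Cre-positive ventricles. Its log2 fold change was −0.40 [−0.68 to −0.12] (adjusted p = 0.714, edgeR's quasi-likelihood test), and it was −0.32 without Cre-negative replicate 1, so that it rested little on that ventricle. Cd36 (chr5:17781690-17888959), the fatty acid translocase, had 18750, 11249 and 10147 counts against 9759, 10203 and 10058. Cre-negative replicate 1 was far above the others, which spanned a narrow range in which the genotypes overlapped, and the log2 fold change of −0.42 [−0.94 to 0.10] became −0.10 without it. Fabp3 (chr4:130308738-130315463), the heart fatty acid binding protein, had 39917, 21506 and 19172 counts against 19962, 16547 and 16777. The same ventricle stood out for Fabp3, and the log2 fold change of −0.60 [−1.23 to 0.04] became −0.20 without it. Lpl, the lipase that frees fatty acids from lipoproteins, had 74625, 55193 and 50020 counts against 44146, 46064 and 51376. For Lpl the highest Cre-positive ventricle lay above the lowest Cre-negative one, with a log2 fold change of −0.34 [−0.76 to 0.07]. Acsl1, which activates long chain fatty acids to acyl-CoA, had 15279, 8051 and 6864 counts against 7539, 6660 and 6572, with a log2 fold change of −0.54 that became −0.11 without Cre-negative replicate 1.

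The genes of lipolysis from lipid droplets included the largest difference among members that did not overlap. Plin5 (chr17:56111597-56117606), the perilipin that holds lipid droplets against mitochondria in oxidative tissue, had 2027, 770 and 919 counts in Cre-negative ventricles and 628, 571 and 667 in Cre-positive ventricles. All 3 Cre-positive ventricles were below all Cre-negative ones (exact two-sided permutation p = 0.1, the smallest possible), with a fold of 0.503 and a log2 fold change of −0.99 [−1.77 to −0.21]. Cre-negative replicate 1 was 2.21 times the next highest ventricle, and without it the log2 fold change of Plin5 was −0.44. Pnpla2, which encodes the triglyceride lipase ATGL, had 10591, 6802 and 5506 counts against 6107, 4439 and 5387, so that the genotypes overlapped, at −0.52 [−1.09 to 0.04]. Lipe, which encodes hormone-sensitive lipase, had 1019, 1119 and 654 counts against 685, 554 and 743, with the lowest Cre-negative ventricle below 2 Cre-positive ones and a log2 fold change of −0.49 [−0.97 to −0.02]. Lipe and Lpl are also expressed in fat, and Adipoq, a marker of adipocytes, varied within both genotypes (39.9, 33.4 and 5.06 TPM against 34.1, 3.77 and 25.3 TPM). Summed TPM of the 6 adipocyte markers was 320, 378 and 46.6 against 395, 44.3 and 258, with Lep at 0 to 0.23 TPM. The ventricles lowest in these markers, Cre-negative replicate 3 and Cre-positive replicate 2, were also the lowest of their genotype for Lipe and Pnpla2. For Lpl this held in the Cre-negative ventricles, whereas the lowest Cre-positive ventricle was replicate 1 (44146 counts), the one with the highest adipocyte sum. Among all 35 members, Cre-negative replicate 3 was below replicate 1 for 35 and below replicate 2 for 29. Cre-positive replicate 2 was the lowest of the 6 ventricles for 17 of them, so this order is not particular to genes expressed in fat. The part of fat tissue in the values of Lipe, Pnpla2 and Lpl was not tested.

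In the carnitine shuttle the 2 CPT1 genes behaved differently from ventricle to ventricle. Cpt1b (chr15:89416405-89425862), the form of heart and muscle, had 11631, 6970 and 6392 counts in Cre-negative ventricles and 6402, 5942 and 5731 in Cre-positive ventricles. Its log2 fold change of −0.47 [−0.98 to 0.05] became −0.15 without Cre-negative replicate 1, and the genotypes overlapped by the narrow margin of a single pair of ventricles. Cpt1a (chr19:3322326-3385735), the form known from liver, had 1125, 1411 and 1109 counts against 1133, 1245 and 1160. Cpt1a had the smallest difference of the 35, −0.04 [−0.31 to 0.22], and was not high in Cre-negative replicate 1. Mlycd, the malonyl-CoA decarboxylase that relieves the block on CPT1, had 1353, 1063 and 885 counts against 807, 760 and 854. It was the only shuttle gene without overlap, with a log2 fold change of −0.45 [−0.80 to −0.09] and of −0.27 without Cre-negative replicate 1. Slc25a20, the carnitine-acylcarnitine carrier, had 2788, 1577 and 1221 counts against 1414, 1182 and 1132. Cpt2, the enzyme on the inner membrane, had 3669, 2283 and 2214 counts against 2407, 1916 and 1955. For both of these genes the genotypes overlapped, at −0.58 [−1.23 to 0.07] and −0.38 [−0.86 to 0.10].

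The first step of the spiral is taken by acyl-CoA dehydrogenases, each suited to a chain length. Acadvl (chr11:70010183-70015428), for very long chains, had 10752, 6812 and 6840 counts in Cre-negative ventricles and 6120, 5834 and 5905 in Cre-positive ventricles. Acadm (chr3:153922353-153944643), for medium chains, had 9693, 7143 and 6973 counts against 6158, 6125 and 6172. Acads, for short chains, had 2488, 2031 and 1863 counts against 1812, 1734 and 1741. None of these 3 genes overlapped between genotypes, with log2 fold changes of −0.45 [−0.88 to −0.02], −0.37 [−0.70 to −0.04] and −0.27 [−0.55 to 0.0046]. The Cre-positive ventricles were close together for each, and those of Acadm spanned 6125 to 6172. Acadl, for long chains, differed from them in that the genotypes overlapped. It had 14191, 8766 and 8620 counts against 9090, 8965 and 8059, and 2 Cre-positive ventricles exceeded 2 Cre-negative ones (log2 fold change −0.27 [−0.74 to 0.19]).

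For the remaining steps of the spiral, 4 of 5 genes had no overlap and all 5 were highest in Cre-negative replicate 1. Hadha (chr5:30119423-30154980) and Hadhb (chr5:30155253-30184593) encode the subunits of the mitochondrial trifunctional protein, and their annotated ends on chromosome 5 are 272 bases apart. Hadha had 19447, 14403 and 13190 counts against 12644, 11895 and 11847, and Hadhb had 17280, 12006 and 11613 against 10807, 10564 and 10131. Neither gene overlapped between genotypes, and the log2 fold changes of this subunit pair were −0.37 [−0.74 to −0.0023] and −0.38 [−0.76 to 0.01]. Hadh, the short chain hydroxyacyl-CoA dehydrogenase, had 5882, 4423 and 4165 counts against 3893, 3357 and 3711. Acaa2, the thiolase that ends each turn, had 8486, 4998 and 4662 counts against 4477, 4028 and 4100. Both were without overlap, at −0.40 and −0.53, and Acaa2 was −0.21 without Cre-negative replicate 1. Echs1, the short chain enoyl-CoA hydratase, was the member of this group that overlapped, with 3702, 2783 and 2674 counts against 2591, 2205 and 2681 and a log2 fold change of −0.29 [−0.64 to 0.05].

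All 3 auxiliary enzymes, which rearrange the double bonds of unsaturated chains so that these can enter the spiral, had no overlap. Eci1 had 2687, 1873 and 1872 counts in Cre-negative ventricles and 1672, 1592 and 1735 in Cre-positive ventricles. Eci2 had 2371, 1506 and 1515 counts against 1380, 1250 and 1273, and Decr1, the dienoyl-CoA reductase, had 4991, 2878 and 2843 against 2587, 2605 and 2565. Their log2 fold changes were −0.36, −0.47 and −0.47, of which −0.17, −0.22 and −0.15 were left without Cre-negative replicate 1. The electron transfer flavoprotein takes electrons from the dehydrogenases. Etfa had 5785, 3750 and 3697 counts against 3491, 3345 and 3494, and Etfb had 5137, 3421 and 3483 against 3098, 2762 and 3029. These subunit genes had no overlap, at −0.36 [−0.77 to 0.05] and −0.44 [−0.82 to −0.05]. Etfdh, the oxidoreductase that hands the electrons to ubiquinone, overlapped, with 7201, 3963 and 3902 counts against 3974, 3685 and 3522 and a log2 fold change of −0.43 [−0.98 to 0.12].

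**Figure D3:**
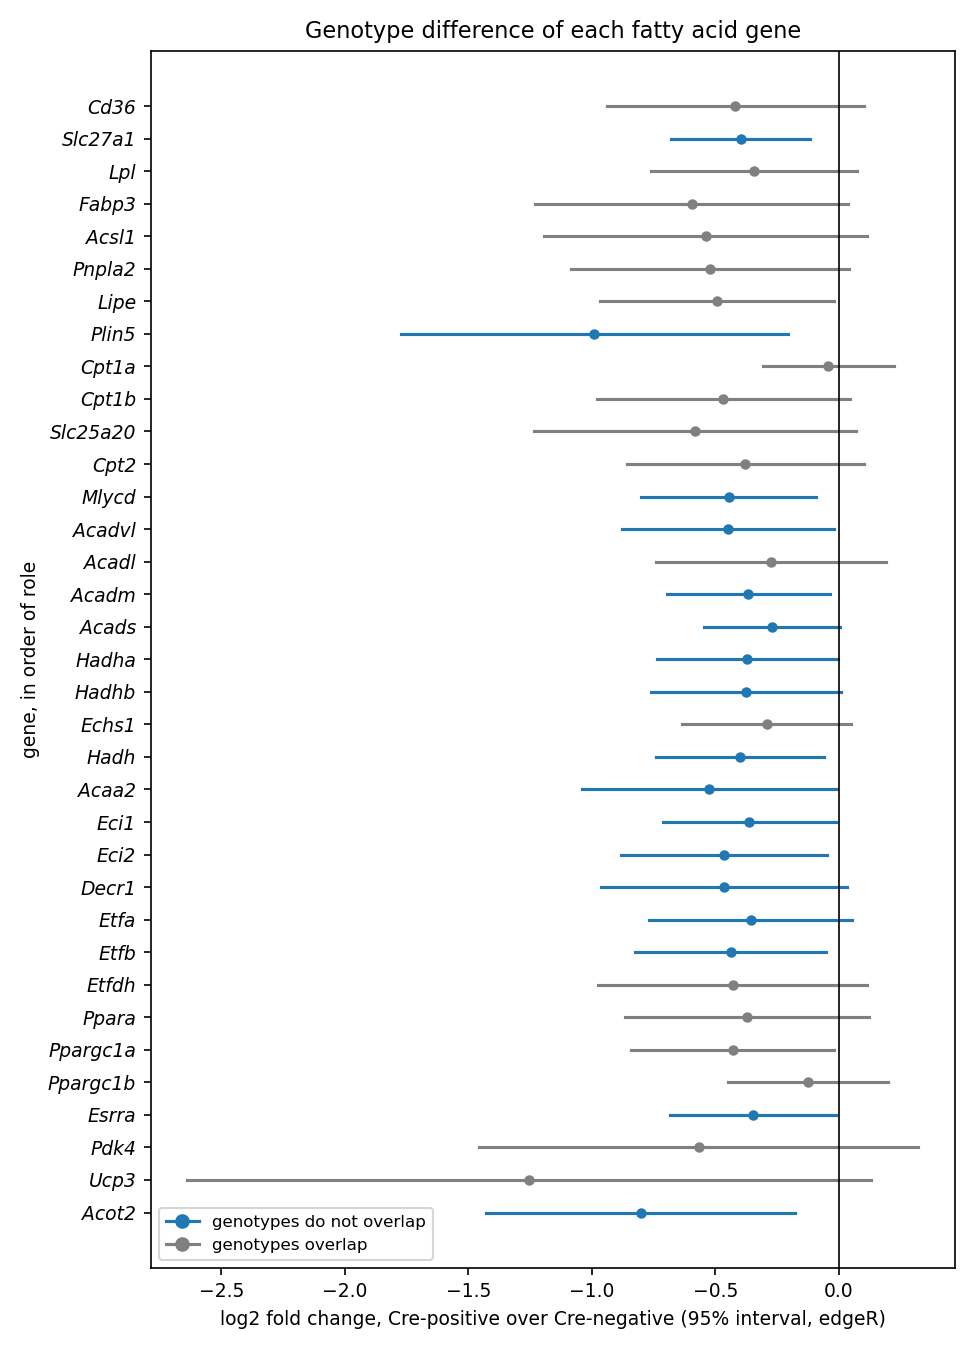
Points give the log2 fold change of Cre-positive over Cre-negative ventricles for each of the 35 fatty acid genes in order of role, and lines its 95% interval from edgeR. Blue marks the 17 genes whose genotypes do not overlap, and all 35 points lie below 0 while none passed the adjusted threshold.

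Of the 4 regulators, Esrra had no overlap between genotypes and the other 3 overlapped. Ppara, the fatty acid receptor of the oxidation programme, had 905, 570 and 489 counts in Cre-negative ventricles and 497, 527 and 488 in Cre-positive ventricles, so that 5 of the 6 ventricles lay within a range in which the genotypes overlapped. Its log2 fold change was −0.37 [−0.87 to 0.12], and −0.07 without Cre-negative replicate 1. Ppargc1a, which encodes the coactivator PGC-1α, had 1280, 826 and 882 counts against 658, 729 and 829, and only the highest Cre-positive and the lowest Cre-negative ventricle crossed (log2 fold change −0.43 [−0.84 to −0.02]). Esrra, the gene of the receptor ERRα, had 2326, 1747 and 1614 counts against 1506, 1382 and 1578. For Esrra the log2 fold change was −0.35 [−0.69 to −0.01], and it was −0.18 without Cre-negative replicate 1. Ppargc1b, the gene of PGC-1β, had 643, 471 and 474 counts against 454, 479 and 520, and its value of −0.13 [−0.45 to 0.20] was 0.03 without that ventricle.

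A last set of 3 genes responds to the load of fatty acids in heart and muscle. Acot2, a mitochondrial thioesterase that frees fatty acids from acyl-CoA, had 1355, 765 and 609 counts in Cre-negative ventricles and 488, 562 and 511 in Cre-positive ventricles. It was without overlap (exact two-sided permutation p = 0.1, the smallest possible), at a fold of 0.573 and a log2 fold change of −0.80 [−1.43 to −0.18], which was −0.40 without Cre-negative replicate 1. Ucp3, an uncoupling protein of the inner membrane, had 140, 514 and 87.6 counts against 92.7, 111 and 108. Cre-negative replicate 2 was 3.67 times the next highest ventricle and 5.87 times Cre-negative replicate 3. The log2 fold change of Ucp3 was the largest of the 35, −1.25 [−2.64 to 0.13], and it was −0.13 without Cre-negative replicate 2. Pdk4, the kinase that shuts off pyruvate dehydrogenase and so favours fatty acids over glucose, had 2169, 4047 and 1499 counts against 1248, 2455 and 1502. In both genotypes replicate 2 was the highest for Pdk4, and the log2 fold change of −0.57 [−1.46 to 0.32] was −0.08 without Cre-negative replicate 2.

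**Figure D4:**
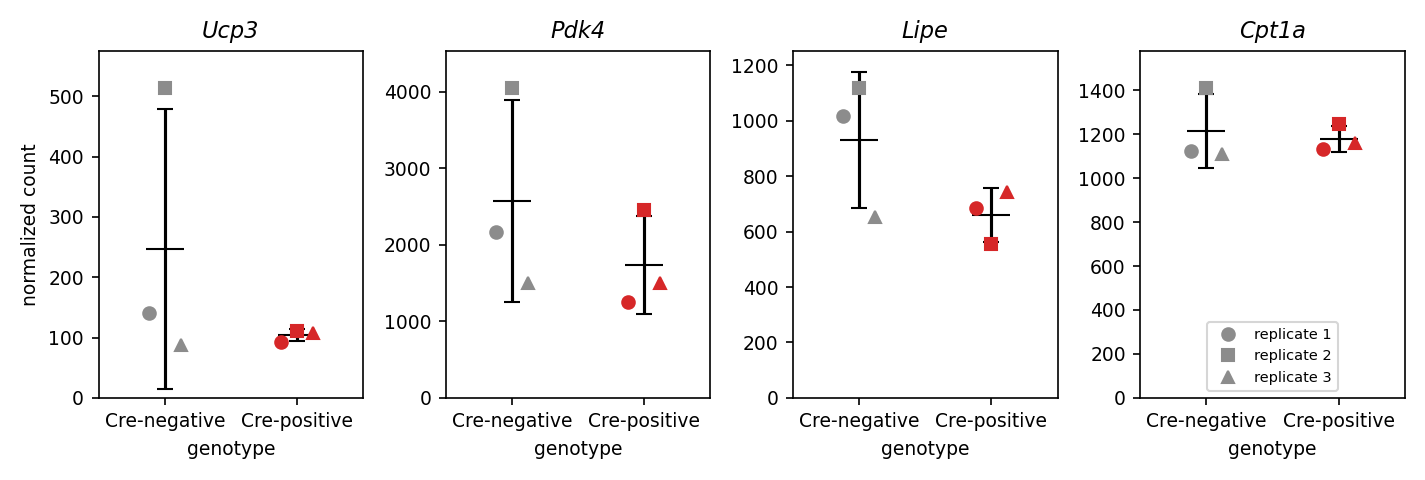
Normalized counts of the 4 members that were highest in Cre-negative replicate 2, by genotype, with symbols for the replicate number and bars for the mean and SD of 3 ventricles. For Ucp3 a single square at 514 stands above the other 5 ventricles, and for Pdk4 the square is the highest point in both genotypes.

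By role, the median log2 fold changes were −0.42 for uptake and activation, −0.52 for lipolysis, −0.45 for the carnitine shuttle, −0.32 for the acyl-CoA dehydrogenases and −0.38 for the hydratase, dehydrogenase and thiolase steps. They were −0.47 for the auxiliary enzymes, −0.43 for the electron transfer flavoprotein, −0.36 for the regulators and −0.80 for Pdk4, Ucp3 and Acot2. Members without overlap were found in each of the 9 roles, with 12 of the 17 among the enzymes of beta-oxidation and the flavoprotein. Without Cre-negative replicate 1 the medians of these 9 roles ran from −0.68 (Pdk4, Ucp3 and Acot2) to −0.12 (the electron transfer flavoprotein), and without Cre-negative replicate 2 that of Pdk4, Ucp3 and Acot2 was −0.13. Differences between roles were not tested.

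**Figure D5:**
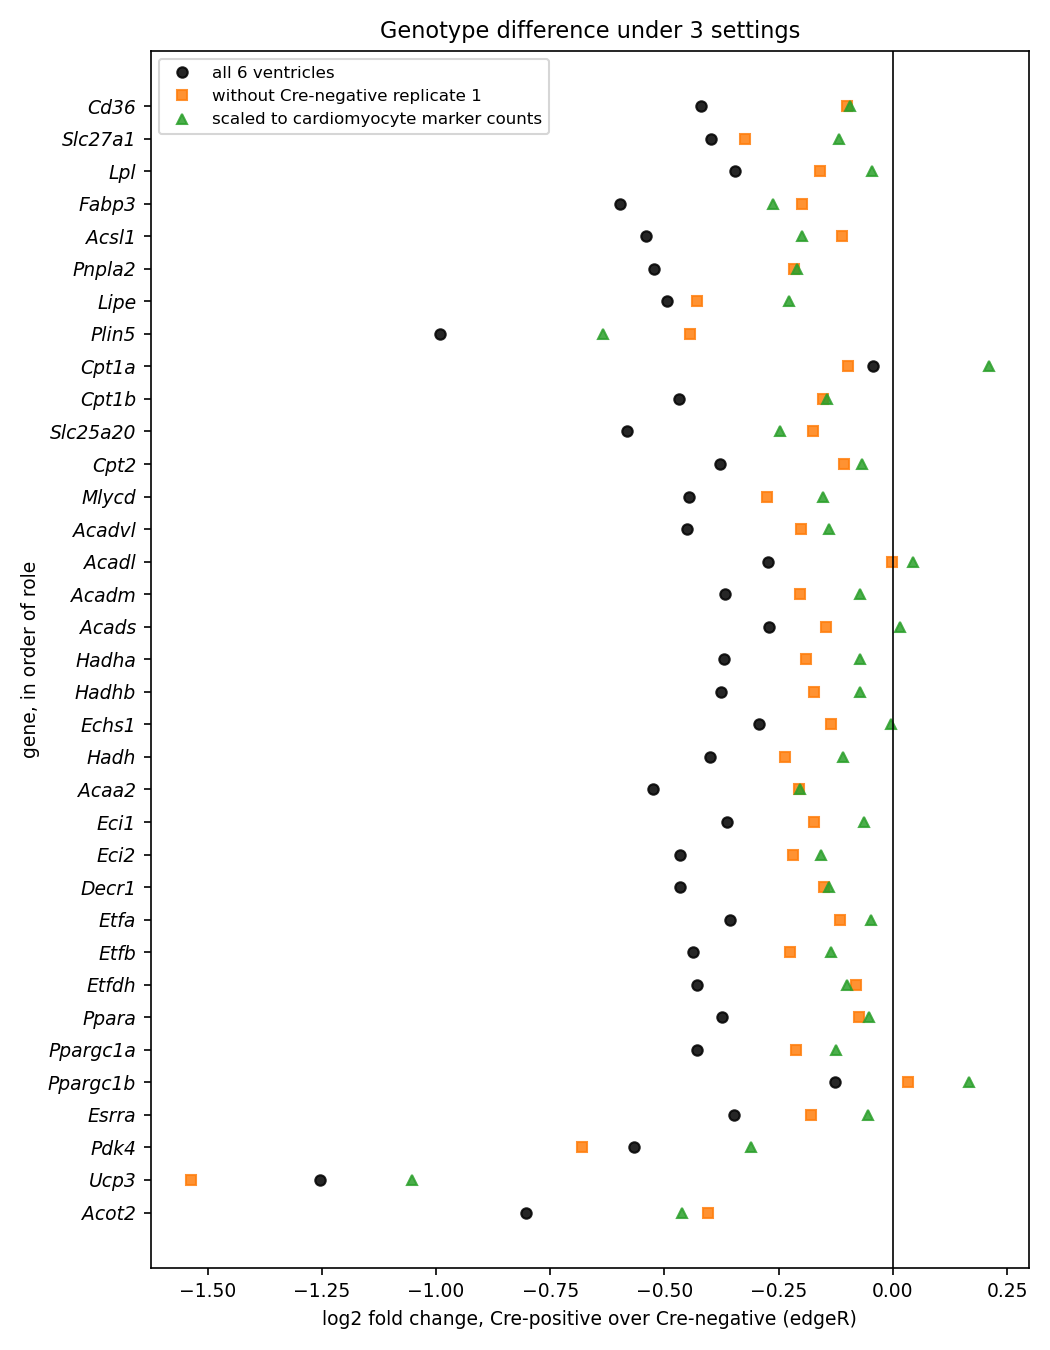
Log2 fold change of Cre-positive over Cre-negative ventricles for each of the 35 fatty acid genes with all 6 ventricles (circles), without Cre-negative replicate 1 (squares) and after scaling to cardiomyocyte marker counts (triangles). The medians are −0.43, −0.18 and −0.12, and squares and triangles lie closer to 0 than the circles except for the squares of Ucp3, Pdk4 and Cpt1a and the triangles of Cpt1a and Ppargc1b.

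The other genes of fatty acid handling were followed in 6 lists of 74 genes, of which 73 were tested and Acaa1b had too few counts. None passed the adjusted threshold in either direction in edgeR's quasi-likelihood test. At an unadjusted p under 0.05 in that test, 1 was higher and 7 were lower (all genes, 5.83% in either direction and 2.98% lower). Of the 73, 58 were negative (all genes, 48.8%), with a median of −0.24 (all genes, 0.01). For 12 the genotypes had no overlap in the lower direction and for 2 in the higher direction (all genes, 6.85% and 7.55%). The median was −0.29 for 17 other genes, mostly of mitochondrial oxidation but with the cytosolic Acot1 and the peroxisomal Acaa1a among them. For 13 genes of triglyceride synthesis and lipid droplets it was −0.30, for 11 other peroxisomal genes −0.25 and for 5 ketone body genes −0.25. It was −0.07 for 15 other genes of uptake, binding and activation and −0.02 for 12 other nuclear receptors and coactivators. Without Cre-negative replicate 1 the median of the 73 was −0.07, and those of the 6 lists, in the same order, were −0.09, −0.09, −0.09, 0.01, 0.05 and 0.004.

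The genes named next had the smallest p of their lists. Gpihbp1, the endothelial protein that carries LPL to the capillary lumen, had 1106, 1048 and 974 counts in Cre-negative ventricles and 767, 818 and 856 in Cre-positive ventricles, with no overlap, a log2 fold change of −0.36 (SE 0.09) and no single ventricle far from its genotype. Acot1, the cytosolic relative of Acot2, had 226, 155 and 93.4 counts against 56.8, 62.9 and 96.9, at −1.13 with overlap. The sequences of Acot1 and Acot2 are close, so the division of reads between them is uncertain. Ucp2, an uncoupling protein related to UCP3 and expressed in many cell types, had 5832, 6800 and 5893 counts against 4919, 5264 and 5093, with no overlap and a log2 fold change of −0.28. Acsl4, an acyl-CoA synthetase that prefers arachidonic acid, was the gene at an unadjusted p under 0.05 in the higher direction, with 492, 415 and 453 counts against 522, 522 and 563 and a log2 fold change of 0.24. Of the other genes with the smallest p of their lists, Pex11a was at −0.45, Acox3 at −0.23, Agpat3 at −0.33, Plin4 at −0.36, Oxct1 at −0.17, Sirt3 at −0.36 and Esrrb at −0.32. The adjusted p of all these was between 0.714 and 0.763 in edgeR's quasi-likelihood test.

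Markers of other cell types gave the following values beside the members. The median log2 fold change was 0.12 for fibroblast markers, of which 6 of 7 were positive, 0.04 for 6 endothelial markers, 0.10 for 7 macrophage markers and −0.63 for 6 neutrophil markers. It was 0.40 for the 4 tested markers of T and B cells, −0.31 for 5 tested adipocyte markers and 1.56 for 2 tested skeletal muscle markers, Tnnt3 and Tnni2, both high in Cre-positive replicate 1 only, without which it was −0.12. Without Cre-negative replicate 1 the medians were −0.09 for macrophage, 0.43 for neutrophil, 0.08 for adipocyte and −0.003 for endothelial markers, each of the opposite sign, and 0.12 for fibroblast markers. The T and B cell median was −0.85 without Cre-positive replicate 3, and that of adipocyte markers was 0.21 without Cre-positive replicate 2. In Cre-positive replicate 1 the adult skeletal myosins Myh2 and Myh4 were at 4.39 and 0.75 TPM, and elsewhere at 0 to 0.02 and at 0. None of the members was highest in Cre-positive replicate 1. The part of these cell types in the members' values was not tested.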

How the data were processed

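Per the labels, left ventricles were homogenized in TRIzol, RNA was purified with phenol and chloroform, and libraries were made by BGI Americas. The submitters' processing notes name Bowtie2 2.2.5, RSEM 1.2.12 and the build GRCm38.p6. The annotation and strand setting are not given in the sources used here. The authors deposited estimated counts per gene, not normalized, of which 11.46% were not whole numbers, since reads shared between transcripts are divided. They also deposited TPM values, scaled by the authors to transcript length and to a fixed sum. Of the other value columns, 12 (6 of FPKM and 6 of averages) were not used, nor was the authors' own DESeq2 comparison, which holds log2 fold changes and p and q values.

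Counts were rounded and tested in R 4.3.3 with edgeR 4.0.16 (filterByExpr set to at least 10 counts in the smaller group and 15 in total, TMM scaling, quasi-likelihood test, Benjamini-Hochberg adjustment, threshold 0.05) for Cre-positive over Cre-negative ventricles, 3 against 3, with no covariate. Scripts were tested on simulated data first. Normalized counts are counts scaled to the mean effective library size. With 13177888 to 14827579 counts per library, a gene at 0 could have had up to 3 counts (0.202 to 0.228 CPM, counting error only). Positions and promoters came from RefSeq (GRCm38.p6), in which 17443 of 17556 gene numbers were found. Plin2, listed for 2 gene numbers, was kept with the number RefSeq gives it. DESeq2 1.42.0, other scalings, no filter, a replicate block and leaving out each ventricle were alternatives; medians of single lists with a ventricle left out were added after seeing the data. Figures were drawn with Python 3.11.15 and matplotlib 3.10.9.

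The members and lists were chosen with earlier results of these data known. Values in every ventricle were to be given for the main step or regulator of each role, for every member with an unadjusted p under 0.05 or with no overlap, and for Yap1, Wwtr1 and Postn. In the other lists the 2 genes with the smallest p were named, except for an item that is not reported here. The remaining members (Slc25a20, Echs1 and Ppargc1b) were added so that all 35 are accounted for.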

Additional observations from a re-analysis of the deposited data

How the results depend on the processing

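No member passed the adjusted threshold under any alternative, the smallest adjusted p of a member over all of them being 0.509 (edgeR's quasi-likelihood test without Cre-negative replicate 3). Of 385 member values under 11 alternatives, 379 kept their sign and 6 reversed. Under cardiomyocyte scaling, which moved the median of all genes up to 0.27, these were Cpt1a (0.21), Ppargc1b (0.17), Acadl (0.043) and Acads (0.015). The others were Cpt1a without Cre-negative replicate 2 (0.078) and Ppargc1b without Cre-negative replicate 1 (0.032). With each ventricle left out in turn, Cpt1a ran from −0.11 to 0.078 and Ppargc1b from −0.20 to 0.032. Cardiomyocyte scaling gave a members' median of −0.12, 4 positive members, 2 at an unadjusted p under 0.05 (all genes, 6.47%) and 6 without overlap (all genes in the lower direction, 0.507%). The median of the other pathway genes moved above 0 (0.059) and that of all genes was 0.27. That of the cardiomyocyte list (0.010) lies near 0 by construction, since the counts of these markers set the scale. Under DESeq2's Wald test 25 members had an unadjusted p under 0.05 (all genes, 4.80%) and 5 genes of the table passed, against 1 in edgeR. On TPM, an alternative chosen after seeing the data, 12 members did not overlap, all lower, against 2.44% of all genes. Correlations between ventricles of opposite genotype were 0.34, 0.06 and −0.03 for the same replicate number, and −0.36 to 0.34 for different numbers. With 3 ventricles per genotype these cannot settle whether replicate numbers pair the ventricles. With a replicate block, 0 genes passed, and of the members 21 had an unadjusted p under 0.05 (all genes, 8.81%), with a median of −0.39. With each ventricle left out in turn, the members' median ran from −0.55 to −0.18, that of the cardiomyocyte list from −0.38 to −0.10 and that of the other pathway genes from −0.35 to −0.07. Positive members numbered 0 to 1, members at an unadjusted p under 0.05 2 to 32 (all genes, 2.68% to 9.61%), members without overlap 18 to 28 (all genes in the lower direction, 10.2% to 13.8%) and genes past the threshold 0 to 2. The lowest normalized count of a member was 87.6 (Ucp3), so depth limits few of these values.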

Other observations

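Angptl4, an inhibitor of LPL, and Plin2, the perilipin found on lipid droplets in most cells, are known targets of PPAR receptors, and their order of ventricles was unlike that of most of the oxidation genes. Angptl4 had 410, 1099 and 777 normalized counts in Cre-negative replicates 1 to 3 and 859, 1080 and 982 in Cre-positive replicates 1 to 3. Plin2 had 1867, 3710 and 3047 against 2124, 3420 and 2684. Both were highest in Cre-negative replicate 2, like Ucp3 and Pdk4, and lowest in Cre-negative replicate 1, where 31 of the 35 fatty acid genes were highest. The log2 fold change of Cre-positive over Cre-negative ventricles was 0.35 for Angptl4 and −0.07 for Plin2 (adjusted p = 0.749 and 0.946, edgeR's quasi-likelihood test). These genes were picked from the lists of other fatty acid genes after their values were seen.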
